A study of Mus musculus with 28 samples.

Results

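On day 5 of benzarone, 495 of 1496 cells of a MOZ-TIF2 leukaemia line held 5 or more unique molecular identifiers (UMIs, single counted RNA molecules) of Arg1, and these Arg1-positive cells carried more RNA of macrophage genes, chemokines and lysosomal proteases than the cells beside them. They were chosen by their Arg1 UMIs and set against the 560 benzarone cells without an Arg1 UMI. A further 441 benzarone cells had 1 to 4 and are given as an intermediate class. The day 5 table held 3158 cells in all, and all single cells of the series numbered 5696. Since Arg1 chose the classes and both classes lie in 1 sample, every value that compares them is a description without a test.

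The line, Ty1.MOZ-TIF2, came from c-Kit+ haematopoietic stem and progenitor cells of C57Bl/6 bone marrow that carry a retrovirus for the Ty1-tagged fusion oncoprotein MOZ-TIF2. Its cells had been sorted for GFP and replated serially in methylcellulose, and the labels do not say whether it is 1 clone. Cells were kept in 5 µM benzarone, an inhibitor of EYA phosphatases, or in DMSO, its solvent. DMSO cells were profiled on days 1 and 5 and benzarone cells on days 1, 3 and 5. Each condition of days 1 and 3 was 1 sample, whereas the DMSO and benzarone cells of day 5 shared 1 sample, parted by hashtags. The bulk libraries used further on came from other bone marrow lines, transformed by HOXA9 alone or by EYA1 with HOXA9, sorted for GFP (with dTomato for EYA1) and given 5 µM benzarone or DMSO for 72 h (n = 3 in each of 4 groups).

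Macrophages are tissue phagocytes that engulf dying cells and debris, digest them in lysosomes and release chemokines that draw other leukocytes. Arginase 1, the product of Arg1, splits arginine into ornithine and urea and is widely used as a mark of alternatively activated mouse macrophages. Granulocytes arise from the same progenitors. They fill primary granules with proteases such as elastase at the promyelocyte stage and secondary granules with proteins such as lactoferrin later. The large differences between Arg1-positive and Arg1-0 cells ran between these macrophage and granulocyte programmes.

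The label of the cells was checked against marker genes. Of 15 macrophage markers, 13 reached 20 CPM (UMIs of a gene summed over a class, per 1000000 UMIs of all listed genes) in Arg1-positive cells. These included Csf1r, Adgre1, Cd68, Mrc1, Fcgr1 and the complement genes C1qa, C1qb and C1qc, while Mertk and Apoe were under it at 8.00 and 9.26 CPM. The 15 markers summed to 2396 CPM in Arg1-positive, 1019 CPM in Arg1-0 and 111 CPM in day 5 DMSO cells. Promyelocyte markers summed to 406, 2880 and 10624 CPM in the same order, and late neutrophil markers to 5577, 37446 and 10392 CPM. Per cell, the late neutrophil marker sums had medians of 2183, 3519 and 566 CPM in that order. Of the mast cell or basophil markers listed, Cpa3 and Ms4a2 had no UMI in Arg1-positive cells. Pf4, a platelet chemokine that serves as a megakaryocyte marker, was at 6446 CPM, but Gp9, another such marker, had 1 UMI in the class.

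Of the named markers other than Arg1, Maf differed between the classes by more than 2-fold and Lpl and Plin2 did not. Maf, a transcription factor of macrophages, stood at 128 CPM in Arg1-positive cells, 40.8 CPM in cells with 1 to 4 Arg1 UMIs and 34.5 CPM in Arg1-0 cells, a 3.70-fold ratio of the first to the last (95% exact interval 3.30 to 4.17, which here and below covers counting error only). Per cell it ran from 0 through a median of 84.1 to 686 CPM in Arg1-positive cells, against a median of 0 and a highest value of 695 CPM in Arg1-0 cells. The classes therefore overlapped from cell to cell. Lpl, the lipase that releases fatty acids from lipoproteins, was at 1285 CPM in Arg1-positive and 1244 CPM in Arg1-0 cells. Plin2, which coats lipid droplets, was at 1299 and 1083 CPM. Both genes were far below these levels in day 5 DMSO cells, at 28.4 CPM for Lpl and 97.6 CPM for Plin2. Per cell, Lpl had a median of 771 CPM in Arg1-positive and 831 CPM in Arg1-0 cells. It was found in 86.9% and 75.9% of them, and the lower quartile of Arg1-0 cells was 33.5 CPM, so part of both classes held little or none. Plin2 was more even, with lower quartiles of 812 and 501 CPM and a UMI in 99.3% or more of the cells of either class.

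Cells with 5 or more Arg1 UMIs made up 33.1% of day 5 benzarone cells (exact interval 30.7% to 35.5%, 1 sample) and 0.0602% of day 5 DMSO cells (1 of 1662, 0.00152% to 0.335%). The earlier samples held 9 of 883 such cells in DMSO on day 1 (1.02%), 18 of 826 in benzarone on day 1 (2.18%) and 87 of 829 in benzarone on day 3 (10.5%). At least 1 Arg1 UMI was found in 39.5% of day 5 DMSO cells at a median depth of 24576 UMIs, and in 62.6% of benzarone cells at 19763. Shares at 1 UMI are therefore set beside the DMSO share as background, whose source was not tested. Depth differed between the days, at a median of 42565 to 44762 UMIs per cell on days 1 and 3. With every cell thinned to 10000 UMIs, which left out 126 benzarone and 42 DMSO cells of day 5, the shares were 31.4% and 0.0617% on day 5, 8.93% in benzarone on day 3, 1.57% in benzarone on day 1 and 0.793% in DMSO on day 1. The order of the conditions was the same on both scales, with no condition in more than 1 sample and no test.

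**Figure D1:**
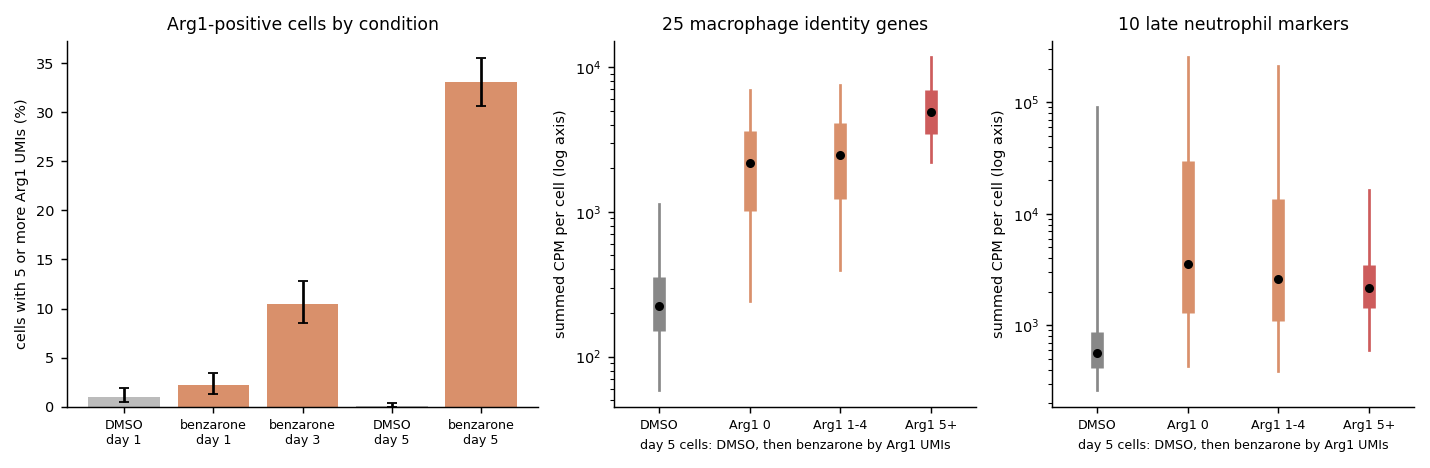
Left, share of cells with 5 or more Arg1 UMIs in each condition (1 sample each, bars with 95% exact binomial intervals), highest in day 5 benzarone at 33.1%. Middle and right, summed CPM per cell (log axis) of 25 macrophage identity genes and of 10 late neutrophil markers in day 5 DMSO cells and in day 5 benzarone cells by Arg1 UMIs. Points are medians, thick lines quartiles and thin lines the range from the 5th to the 95th percentile over cells, and Arg1-positive cells lie highest for macrophage genes and have the shortest upper range for neutrophil markers.

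Arg1 itself spread widely among the members, from 5 to 504 UMIs with a median of 55. Of the 495 cells, 380 had 20 or more, 63 had 10 to 19 and 52 had 5 to 9. Near the threshold lay 21 members with 5 or 6 UMIs and 49 excluded cells with 3 or 4. In these neighbours Maf was at 82.2 CPM just inside and 57.8 CPM just outside, Pf4 at 3638 and 3222 CPM, and Msr1 at 307 and 447 CPM. Ccl12 was at 424 CPM just inside and 778 CPM just outside, S100a9 at 434 and 2917 CPM and Ngp at 5.87 and 383 CPM. Cells on both sides of the threshold were thus near each other for some genes and far apart for others, with few cells on either side. Arg1-positive cells were also deeper, with a median of 24441 UMIs against 20044 in the intermediate and 15988 in the Arg1-0 class. After thinning to 10000 UMIs the classes held 2457, 2445 and 2424 genes per cell at the median. Mitochondrial UMIs were alike at medians of 2.18%, 2.10% and 2.15%, and ribosomal protein genes took 16.7%, 20.4% and 20.8%. With every cell thinned to 10000 UMIs, 128 genes were at least 2-fold higher and 93 at least 2-fold lower, close to the unthinned counts that follow.

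Among 4622 genes with at least 20 CPM in the higher class and 20 UMIs over both, 118 (2.55%) were at least 2-fold higher in Arg1-positive than in Arg1-0 cells and 80 (1.73%) at least 2-fold lower. The median log2 ratio over all compared genes was -0.03. These counts use the contrast that defined the cells and describe its size only.

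Macrophage identity genes were higher together. Of 21 compared, 13 were at least 2-fold higher, none was 2-fold lower and all 21 lay above a ratio of 1, with a median log2 ratio of 1.13. C1qa, part of the complement initiator C1q, had the largest ratio of any gene at 50 CPM or more in the higher class, 98.8 against 12.2 CPM (8.10-fold, 6.72 to 9.83). It was nevertheless found in 23.0% of Arg1-positive cells only, and single cells reached 3464 CPM. C1qc was at 159 against 47.5 CPM. Gpnmb, a glycoprotein of phagocytes with busy lysosomes, was at 477 against 125 CPM (3.80-fold, 3.58 to 4.05), with a median per cell of 242 against 0 CPM. Trem2, a lipid-sensing receptor, was at 335 against 130 CPM, and Msr1, a scavenger receptor, at 517 against 204 CPM.

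These genes were present in Arg1-0 cells too, at levels above DMSO. Summed over 25 macrophage identity genes, a cell held a median of 4926 CPM in the Arg1-positive class (383 to 21862), 2456 CPM in the intermediate class, 2182 CPM in the Arg1-0 class (0 to 19324) and 226 CPM in DMSO. The 5th percentile of Arg1-positive cells was 2217 CPM. Of Arg1-0 cells 273 (48.8%) lay at or above that value, and of DMSO cells 37 (2.23%). Arg1-positive cells were in this sense the upper part of a wider macrophage-like range among benzarone cells.

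Chemokines gave the next largest ratios. Of 16 compared chemokine and inflammatory genes, 8 were 2-fold higher and 1 was 2-fold lower, with a median log2 ratio of 0.86. Ccl12, Ccl7 and Ccl2, which attract monocytes, were at 1254 against 165 CPM (7.61-fold, 7.23 to 8.01), 1693 against 249 CPM (6.81-fold, 6.53 to 7.10) and 4225 against 807 CPM (5.23-fold, 5.11 to 5.36). Ppbp and Pf4, chemokines best known from platelets, were at 7639 against 1414 CPM and 6446 against 1254 CPM. Per cell, Ccl2 had a median of 2408 CPM in Arg1-positive cells and 99.6 CPM in Arg1-0 cells, but it reached 27724 and 24786 CPM in the highest cell of either class. The ranges of the classes overlapped although their medians lay far apart. Spp1, the secreted matrix protein osteopontin, was at 6296 against 2084 CPM. The exception was Ccl5, at 1.49 against 25.6 CPM. It was found in 2.02% of Arg1-positive and 1.07% of Arg1-0 cells, so its 256 UMIs in the latter came from few cells.

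UMIs of these chemokines were also common in DMSO cells. Pf4 had at least 1 UMI in 92.4% of DMSO cells at only 118 CPM, and in 99.4% of Arg1-positive cells. After thinning, Pf4 was found in 96.9% of Arg1-positive, 79.6% of Arg1-0 and 67.2% of DMSO cells. For Pf4 the share of cells with a UMI thus separated the groups far less than its level did. The part of free RNA in these shares was not tested. For Maf the thinned shares were 56.4%, 16.6% and 1.73%.

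Lysosomal genes were higher by smaller factors. Of 32 compared, 4 were 2-fold higher, none was 2-fold lower and 29 lay above 1, with a median log2 ratio of 0.44. The 4 were Lgmn (310 against 64.5 CPM), Ctsl (4266 against 1239 CPM) and Ctsb (2454 against 881 CPM), which encode the proteases legumain and cathepsins L and B, and Cd68 (432 against 214 CPM), a lysosomal membrane glycoprotein. Ctsl had a median per cell of 3355 CPM in Arg1-positive and 463 CPM in Arg1-0 cells. The sum of 37 lysosomal genes per cell had medians of 20280, 13271, 11579 and 2874 CPM in Arg1-positive, intermediate, Arg1-0 and DMSO cells.

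Genes of uptake and matrix were mostly higher, and those of oxidative stress and iron were mixed. Of 17 compared phagocytic receptors and adaptors, 5 were 2-fold higher and none lower (median log2 ratio 0.62). Of 25 matrix, adhesion and migration genes, 7 were 2-fold higher and none lower (median 0.61), among them Fn1, which encodes fibronectin (46.8 against 14.0 CPM), and Mmp9, a gelatinase (205 against 67.7 CPM). Of 16 genes of oxidative stress and iron, 2 were 2-fold higher, none was 2-fold lower and 4 lay below 1 (median 0.28). Hmox1, the haem-degrading enzyme, was at 803 against 240 CPM. Fth1, the ferritin heavy chain that stores iron, was at 39960 against 20095 CPM. Gsr, glutathione reductase, lay the other way at 367 against 605 CPM, as did Tfrc, the transferrin receptor for iron uptake, at 24.5 against 37.8 CPM. Serpinb2, a plasminogen activator inhibitor of monocytes, was at 381 against 92.2 CPM, Marcks, an actin-binding substrate of protein kinase C, at 54.0 against 12.8 CPM, and Rnase4, a secreted ribonuclease, at 66.9 against 19.1 CPM.

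Genes named for alternative activation split. Of 7 compared, 4 were 2-fold higher and 2 were 2-fold lower. Mrc1, the mannose receptor, was at 59.9 against 21.8 CPM, Ccl24 at 24.5 against 9.30 CPM and Il4ra, a receptor chain for interleukin 4, at 93.1 against 45.4 CPM. Chil3, a chitinase-like protein that is also made by neutrophil precursors, was at 147 against 1102 CPM, and Ear2, a ribonuclease of the eosinophil family, at 28.2 against 147 CPM. Arginine, polyamine and proline genes other than Arg1 were nearly balanced, with 6 of 12 above and 6 below 1. Smox, which oxidises spermine, was at 46.9 against 22.1 CPM, while Srm, which makes spermidine, was at 90.1 against 140 CPM.

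Lipid genes had no common direction. Of 18 compared, 9 lay above 1 and 9 below, with 2 at least 2-fold higher and 2 at least 2-fold lower. Abca1, which exports cholesterol, was at 48.5 against 14.0 CPM and Lrp1, an endocytic receptor, at 90.5 against 43.2 CPM. Dgat1 and Dgat2, enzymes that make triglyceride, were at 32.4 against 66.0 CPM and 7.22 against 28.4 CPM.

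**Figure D2:**
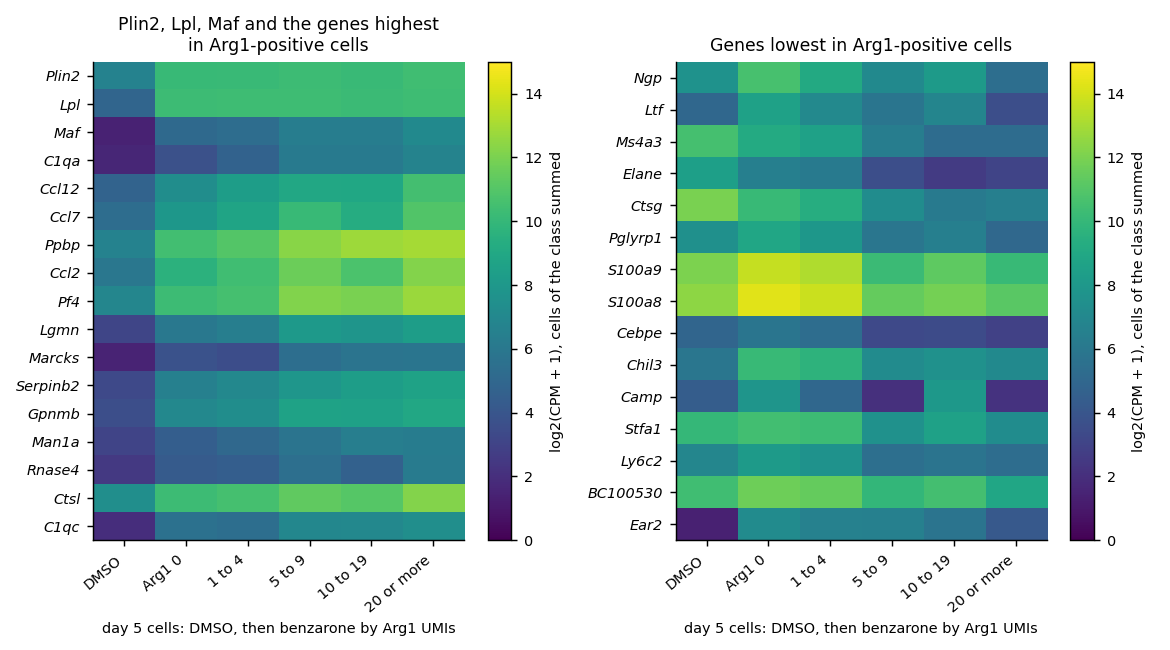
Heat maps of log2(CPM + 1), with UMIs summed over the cells of a class, for day 5 DMSO cells and day 5 benzarone cells by their Arg1 UMIs (columns). Left, Plin2, Lpl, Maf and the genes with the largest ratios in Arg1-positive cells, where Plin2 and Lpl are even across the benzarone columns and Pf4 goes from 1254 CPM at 0 Arg1 UMIs to 6976 CPM at 20 or more. Right, genes with the smallest ratios, such as S100a8 with 20427 CPM at 0 Arg1 UMIs.

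Granule genes were lower. Of 15 compared primary granule genes, 9 were 2-fold lower and none 2-fold higher (median log2 ratio -1.84). Elane, which encodes neutrophil elastase, was at 7.45 against 89.0 CPM, Ctsg, cathepsin G, at 93.9 against 1100 CPM and Ms4a3, a membrane protein of granulocyte and monocyte progenitors, at 42.6 against 580 CPM. DMSO cells held more of each, at 351, 4011 and 1534 CPM. The gap between the benzarone classes lay in a minority of Arg1-0 cells. Per cell, Ctsg had medians of 47.6 and 86.5 CPM and highest values of 2083 and 16008 CPM, and Elane was found in 12.5% and 19.3% of cells. Summed over 16 primary granule genes, a cell held a median of 3122 CPM in Arg1-positive and 3593 CPM in Arg1-0 cells, with 95th percentiles of 6783 and 24069 CPM. Of 17 compared secondary granule and late neutrophil genes, 11 were 2-fold lower and none 2-fold higher (median -2.90). Ngp, neutrophilic granule protein, was at 76.4 against 1586 CPM, Ltf, lactoferrin, at 26.2 against 378 CPM, and S100a8 and S100a9, which form calprotectin, at 2526 against 20427 CPM and 1254 against 13163 CPM. Cebpe, a transcription factor of granule genes, was at 7.14 against 56.6 CPM, and Myb, a transcription factor of progenitors, at 4.47 against 34.9 CPM. Mmp8, neutrophil collagenase, lay the other way at 1480 against 812 CPM.

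Per cell, the 22 listed secondary granule and late neutrophil genes had median sums of 23865 CPM in Arg1-positive and 26122 CPM in Arg1-0 cells. The median in DMSO cells was 1299 CPM. The late neutrophil RNA of Arg1-0 cells sat in part of them. Summed over 10 markers, Arg1-0 cells had a median of 3519 CPM with an upper quartile of 29880, and Arg1-positive cells a median of 2183 CPM with an upper quartile of 3443. DMSO cells had a median of 566 CPM over these markers. Above 16441 CPM, the 95th percentile of Arg1-positive cells, lay 25 Arg1-positive and 176 Arg1-0 cells. The 25 had a median of 29356 UMIs against 24287 in the other members and reached 396053 CPM. No doublet caller was run, and whether 2 cells shared a droplet in these was not tested. With both classes limited to cells at or under that value (470 and 384 cells), 79 of 4659 genes were 2-fold higher (1.70%), 74 of them among the 118, and 40 were 2-fold lower (0.859%), 37 of them among the 80. C1qa was then at 97.7 against 15.8 CPM, Ccl12 at 1259 against 214 CPM and Maf at 128 against 41.9 CPM. Elane was at 6.67 against 71.0 CPM and Ctsg at 90.0 against 965 CPM. Macrophage identity genes had a median log2 ratio of 1.03 and primary granule genes of -1.37 in these cells. The chemokine median was lower than over all cells, at 0.40 in place of 0.86, with 6 of 17 genes 2-fold higher and 1 lower. The late neutrophil list, whose markers set this limit, went from a median of -2.90 over 17 genes to 0.35 over 10. Of the 10, 2 were 2-fold lower and 1 higher. Ngp, at 10.9 against 14.0 CPM, and Ltf fell under the floor of 20 CPM and left the median, so the 2 medians cover unlike sets of genes.

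Transcription factors and receptors of the myeloid lineage were less one-sided. Of 24 transcription factors compared, 4 were 2-fold higher, among them Maf, Atf3 and Ets2, and 2 were 2-fold lower (Cebpe and Myb). Spi1, which encodes PU.1, the factor shared by macrophages and granulocytes, was at 310 against 350 CPM, and Irf8, a factor of the monocyte branch, at 98.6 against 49.5 CPM. Csf1r, the receptor for macrophage colony-stimulating factor, was at 76.3 against 38.7 CPM and Csf2rb, a receptor chain for GM-CSF, at 441 against 265 CPM. Among 8 monocyte genes, Ly6c2, a surface mark of inflammatory monocytes and their progenitors, was at 42.0 against 285 CPM, Ccr2, the receptor for Ccl2, at 203 against 111 CPM and F13a1, a transglutaminase of monocytes, at 30.7 against 4.60 CPM. Hoxa9, a homeobox factor of leukaemia cells and progenitors, was at 73.9 against 94.7 CPM and at 204 CPM in DMSO cells. Sox4, another progenitor factor, was at 110 against 46.1 CPM and at 112 CPM in DMSO cells.

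Most compared proliferation genes lay below a ratio of 1, though by less than 2-fold. None of 23 mitosis genes or 21 replication genes was 2-fold different. Over all compared genes 2.55% were 2-fold higher and 1.73% lower, a share at which lists of this size hold few such genes. The median log2 ratios were -0.13 for mitosis and -0.47 for replication genes, and 20 of the 21 replication genes lay below 1. All 24 compared genes of ribosome synthesis and MYC targets lay below 1 (median -0.49). Mki67, a mark of cycling cells, was at 30.4 CPM in Arg1-positive and 57.0 CPM in DMSO cells, with a ratio of 0.759 between Arg1-positive and Arg1-0 cells (0.658 to 0.875). Of 19 cholesterol synthesis genes 16 lay below 1 and 1 was 2-fold lower (median -0.27), which was Fdps, farnesyl diphosphate synthase, at 67.4 against 161 CPM. Of 12 genes of ATF4 and amino acid stress 7 lay below 1 and 2 were 2-fold lower (median -0.19), namely Phgdh, of serine synthesis, at 35.8 against 90.8 CPM and Slc7a5, an amino acid transporter, at 10.7 against 22.7 CPM. Of 10 interferon-stimulated genes 8 lay above 1 (median 0.35), and of 15 immediate early genes 14 did (median 0.46).

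**Figure D3:**
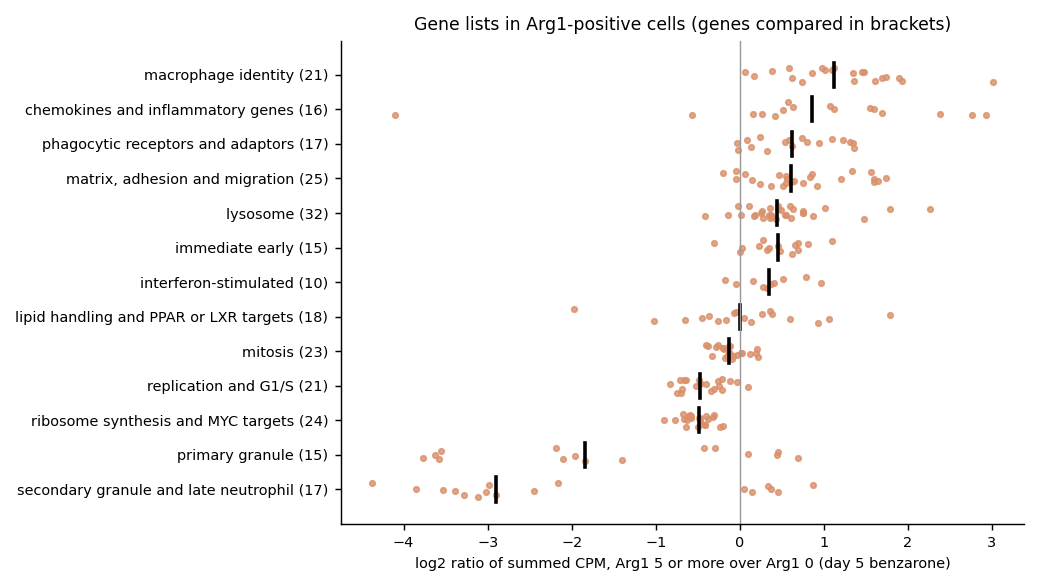
Log2 ratio of summed CPM in Arg1-positive over Arg1-0 day 5 benzarone cells for every compared gene (points) of 13 gene lists, with the median of each list as a black bar and the number of genes compared in brackets. Macrophage identity lies highest at a median of 1.13 and late neutrophil genes lowest at -2.90, with 6 of their 17 genes above 0.

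Within the members, Maf, Pf4, Ccl2 and Ctsl were highest in cells with 20 or more Arg1 UMIs. Depth differed too, with medians of 22955 UMIs per cell at 5 to 9 Arg1 UMIs, 19842 at 10 to 19 and 25345 at 20 or more. Maf was at 80.5 CPM in cells with 5 to 9 Arg1 UMIs, 80.7 CPM with 10 to 19 and 140 CPM with 20 or more. Pf4 was at 4658, 4105 and 6976 CPM in the same order, Ccl2 at 3112, 1704 and 4697 CPM and Ctsl at 2635, 2123 and 4750 CPM. The middle class was not between the others for Ccl2, Ctsl and Pf4. Lpl stayed level at 1316, 1209 and 1291 CPM. Of all UMIs of a gene in day 5 benzarone cells, the members held 77.4% for C1qa, 75.1% for Pf4, 68.9% for Maf, 39.8% for Lpl and 4.42% for Ngp, while they were 33.1% of the cells.

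Promoters of the higher genes were searched for short motifs, because many of these genes were higher together. RefSeq promoters (GRCm38.p6, 250 bases before to 50 after the start) were at hand for 88 of the 118 genes, in 108 windows. On both strands, TGACTCA, the AP-1 motif, was found in 10 of the 108 windows (9.26%), in 5 of 79 windows of the lower genes (6.33%), in 3.56% of 4498 windows of all compared genes and in 5.20% of all 32851 windows. TGCTGA, the MAF half-site, was in 16.7%, 26.6%, 14.5% and 19.5% of the same sets, AGGTCA, the nuclear receptor half-site, in 16.7%, 21.5%, 12.8% and 16.3%, and TCACGTGA, the MiT/TFE type, in 0.926%, 1.27%, 2.42% and 0.974%. The MAF and AP-1 motifs can overlap by sharing TGA. Of the genes named for the largest ratios Gpnmb alone held the AP-1 motif, 8 bases past its start. These shares are descriptions of letters in windows, without a test, and the set of higher genes was itself chosen from these data.

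Stretches with the AP-1 motif (in capitals, as TGACTCA or its reverse complement TGAGTCA) are shown for 4 of those 10 windows, for genes of phagocytosis and matrix, each read 5′ to 3′ on the gene's strand and ending before the start. Cd68 (log2 ratio 1.01) lies on the minus strand with the stretch at chr11:69666171-69666220, C3ar1, the receptor for complement C3a (1.69), on the minus strand at chr6:122856158-122856205, Mmp12, macrophage elastase (1.33), on the plus strand at chr9:7347304-7347362, and Emp1, an epithelial membrane protein (1.64), on the plus strand at chr6:135362760-135362818.
Cd68: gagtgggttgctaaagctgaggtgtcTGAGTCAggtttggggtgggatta
C3ar1: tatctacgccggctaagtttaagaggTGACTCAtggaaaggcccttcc
Mmp12: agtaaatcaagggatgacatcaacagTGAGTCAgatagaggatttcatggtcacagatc
Emp1: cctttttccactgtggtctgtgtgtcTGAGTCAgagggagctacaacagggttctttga

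Of the genes with the 15 largest ratios, 3 had a MAF half-site in the window, shown because Maf was among those genes. The half-site was in 16.7% of windows of the higher genes, 26.6% of the lower genes and 19.5% of all windows. How many of the 15 had a window at hand was not counted, and a link to Maf was not tested. In the stretches below the capitals mark TGCTGA or its reverse complement TCAGCA. Ctsl lies on the minus strand at chr13:64370637-64370694, Ccl12 on the plus strand at chr11:82101721-82101778 and Serpinb2 on the plus strand at chr1:107511466-107511509.
Ctsl: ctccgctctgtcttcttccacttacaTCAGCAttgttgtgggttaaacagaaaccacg
Ccl12: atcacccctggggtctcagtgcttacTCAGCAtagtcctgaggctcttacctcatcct
Serpinb2: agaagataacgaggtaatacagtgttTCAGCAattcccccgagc

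The same classes were formed in the day 3 benzarone sample, which the choice of members had not used. It held 87 cells with 5 or more Arg1 UMIs and 558 with none, and its table listed 9448 genes. Of 5099 genes compared there, 615 were 2-fold higher (12.1%) and 1062 were 2-fold lower (20.8%) in Arg1-positive cells, with a median log2 ratio of -0.38 over all genes. Of the 118 genes higher on day 5, 107 were listed and 103 compared on day 3, and 101 of these were 2-fold higher and none 2-fold lower, with a median log2 ratio of 3.54. Of the 80 lower genes, 68 were compared, 55 were 2-fold lower and 4 were 2-fold higher, with a median of -1.95. The 4 were Gm14548, Stfa2, Stfa2l1 and Stfa3, named after their values were seen. The day 5 table and the table of days 1 and 3 shared 9 cell barcodes, and 1 of these belonged to a member.

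Ratios of macrophage genes were larger on day 3, where their CPM in Arg1-0 cells was lower. Macrophage identity genes summed to 505 CPM in Arg1-0 cells of day 3 and 2692 CPM on day 5, against 4705 and 5652 CPM in Arg1-positive cells. The day 3 sums cover 20 listed genes and the day 5 sums 25, so they are not like for like between days. CPM is also taken over the genes listed for each day, which differ. Without benzarone, Pgk1 was at 956 CPM in DMSO cells on day 1 and 38.2 CPM on day 5. Levels are therefore best compared between classes of the same day. Maf was at 152 against 1.37 CPM on day 3, Ccl12 at 1776 against 5.65 CPM and Gpnmb at 205 against 1.29 CPM. Lpl and Plin2, level between classes on day 5, were 430 against 112 CPM and 1080 against 412 CPM on day 3. Elane was at 7.68 against 726 CPM and Ctsg at 83.9 against 3742 CPM. Late neutrophil genes were mixed on day 3, with 6 of 12 at least 2-fold higher and 5 at least 2-fold lower, although S100a8 was lower at 1575 against 4402 CPM. C1qa, Abca1, Fn1 and Marcks were not listed for day 3 and so could not be compared there. The same held for the higher genes Ccl8, Ccl24, Cxcl14, Mmp12, Nrp1, P2ry6 and Slc37a2. Of the lower genes, Ccl5, Ceacam10, Ear2 and Retnlg were not listed.

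**Figure D4:**
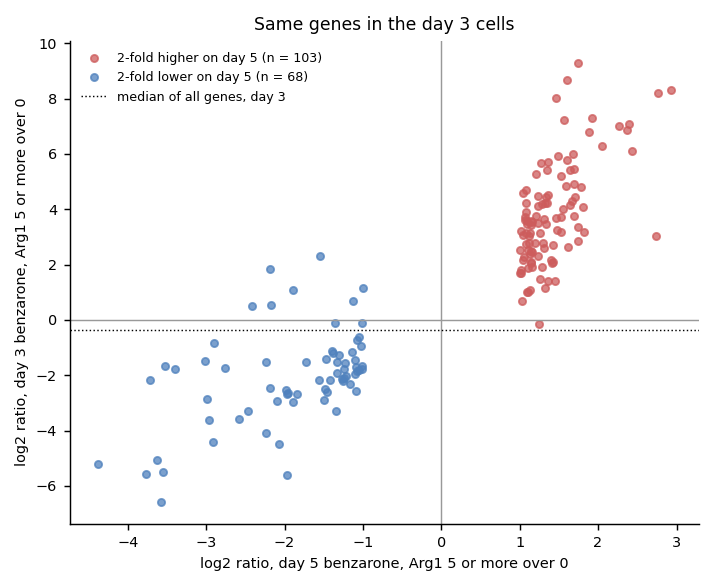
Log2 ratio of Arg1-positive over Arg1-0 cells on day 5 (x axis) and day 3 (y axis) in benzarone, for genes at least 2-fold higher (red, 103 genes compared on day 3) or lower (blue, 68 genes) on day 5, with the day 3 median of all genes dotted at -0.38. Of the red points 101 lie at a 2-fold ratio or more on day 3 and none at 2-fold lower, and of the blue points 4 lie at 2-fold higher.

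Bulk libraries of the HOXA9 and EYA1+HOXA9 lines tested whether genes of the Arg1-positive cells responded to benzarone in samples the choice had not used. In bulk RNA, more cells of a type and more RNA per cell cannot be told apart, and the labels do not say that the 3 libraries of a group came from separate cultures, so p-values measure only the spread between these libraries, which may be technical. In the edgeR quasi-likelihood fit, 2278 of 13375 genes rose (17.0%) and 1655 fell (12.4%) in EYA1+HOXA9 cells at an adjusted p under 0.05. Without DMSO replicate 3, the EYA1+HOXA9 count was 2353 in place of 3933. In HOXA9 cells no gene passed in either direction (0% of 13375), with 232 at an unadjusted p under 0.05. In that line DESeq2 called 14 genes and edgeR with the replicate number as a block, fitted over both lines together, called 6.

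Of the 118 genes higher in Arg1-positive cells, 110 were tested in bulk. In EYA1+HOXA9 cells 43 of them rose and 4 fell, with a median log2 difference of 0.65 against 0.01 over all genes. Over all genes tested in that line, 17.0% rose and 12.4% fell, which applies to each count here. Of the 80 lower genes 77 were tested, of which 8 rose and 27 fell, with a median of -0.36. In HOXA9 cells the medians were 0.15 and 0.04. Genes that rose in the edgeR fit included Adgre1, the F4/80 antigen (log2 difference 2.41, adjusted p = 0.000525), and Ctsl (0.88, adjusted p = 0.000274). The 4 that fell were Pid1 (log2 difference -2.71), Stab1 (-1.12), Timp2 (-1.03) and Nrp2 (-0.53). These genes, and Adgre1 and Ctsl, were picked after their values were seen. Of the macrophage identity list 12 of 22 rose and 1 fell, and of the lysosome list 29 of 37 rose and none fell.

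Arg1 did not follow this list in EYA1+HOXA9 cells. It was at 7.06, 4.76 and 6.09 CPM in the DMSO libraries and 0.539, 1.79 and 1.79 CPM in the benzarone libraries, so the groups did not overlap and benzarone was the lower. The log2 difference was -2.13 ± 0.90 (SE) with an adjusted p of 0.0965 in edgeR, and -2.14 with an adjusted p of 0.00727 in a fit of that line's 6 libraries alone. In HOXA9 cells Arg1 was at 4.61, 5.56 and 35.1 CPM in DMSO and 13.3, 10.8 and 66.0 CPM in benzarone, a log2 difference of 0.99 ± 0.79 (SE, adjusted p = 1). That difference turned to -0.33 without benzarone replicate 3 and was 2.56 without DMSO replicate 3. Each of these settings breaks a pair, since replicate numbers pair the libraries of that line. Within each pair Arg1 was higher in benzarone. With the replicate number as a block, its effects shared by both lines, the difference was 1.07 (log2) and did not pass. That fit is not a pairing within the HOXA9 line alone. The difference between the lines had an adjusted p of 0.137 in edgeR.

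Replicate 3 of the HOXA9 line stood apart for several of these genes in both treatments. Maf was at 1.64, 1.23 and 8.66 CPM in HOXA9 DMSO libraries and at 2.27, 3.03 and 14.4 CPM with benzarone. Ccl12 was at 0.782, 1.27 and 4.67 CPM in DMSO and at 1.46, 1.41 and 10.4 CPM with benzarone. The high value came from replicate 3 in each of these groups, and Ccl2, Ccl7, Ppbp, Pf4 and Lgmn were also highest in replicate 3. In EYA1+HOXA9 cells Maf was at 2.05, 2.25 and 2.23 CPM in DMSO and 7.63, 5.56 and 2.36 CPM in benzarone without overlap (log2 difference 1.25, adjusted p = 0.263 in edgeR). That difference passed with the line's 6 libraries alone (adjusted p = 0.0442).

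Gpnmb gave the clearest response among the genes given here library by library. In EYA1+HOXA9 cells it was at 253, 311 and 173 CPM in DMSO and 2015, 1314 and 861 CPM in benzarone. It rose by 2.51 ± 0.32 (log2, SE) with an adjusted p of 0.000247 in edgeR, and the groups did not overlap. In HOXA9 cells it was at 265, 160 and 242 CPM and 397, 271 and 336 CPM, also without overlap, with a log2 difference of 0.59 ± 0.30 (adjusted p = 1). The response differed between the lines by 1.92 (log2, adjusted p = 0.0211 in edgeR).

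Lpl and Plin2 were tested in the same fit. Lpl was at 21.2, 26.5 and 22.1 CPM in EYA1+HOXA9 DMSO and 96.6, 52.1 and 40.8 CPM in benzarone, a rise of 1.44 ± 0.40 (log2, SE, adjusted p = 0.0180 in edgeR). That call was lost without benzarone replicate 1 (0.98, adjusted p = 0.107), without DMSO replicate 1 (1.38, adjusted p = 0.0536) and without DMSO replicate 3 (1.40, adjusted p = 0.0692). Plin2 was at 302, 173 and 158 CPM against 313, 257 and 220 CPM in that line, and the groups overlapped (0.32 ± 0.25, adjusted p = 0.372). In HOXA9 cells Plin2 was at 267, 180 and 217 CPM in DMSO and 571, 376 and 423 CPM in benzarone, without overlap (1.04 ± 0.25, adjusted p = 1). With the replicate number as a block in edgeR, the same difference had an adjusted p of 0.0451, and in DESeq2 without a block of 0.0415. That block was fitted over all 12 libraries with replicate effects shared by both lines, so it is not a paired fit of the HOXA9 line.

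**Figure D5:**
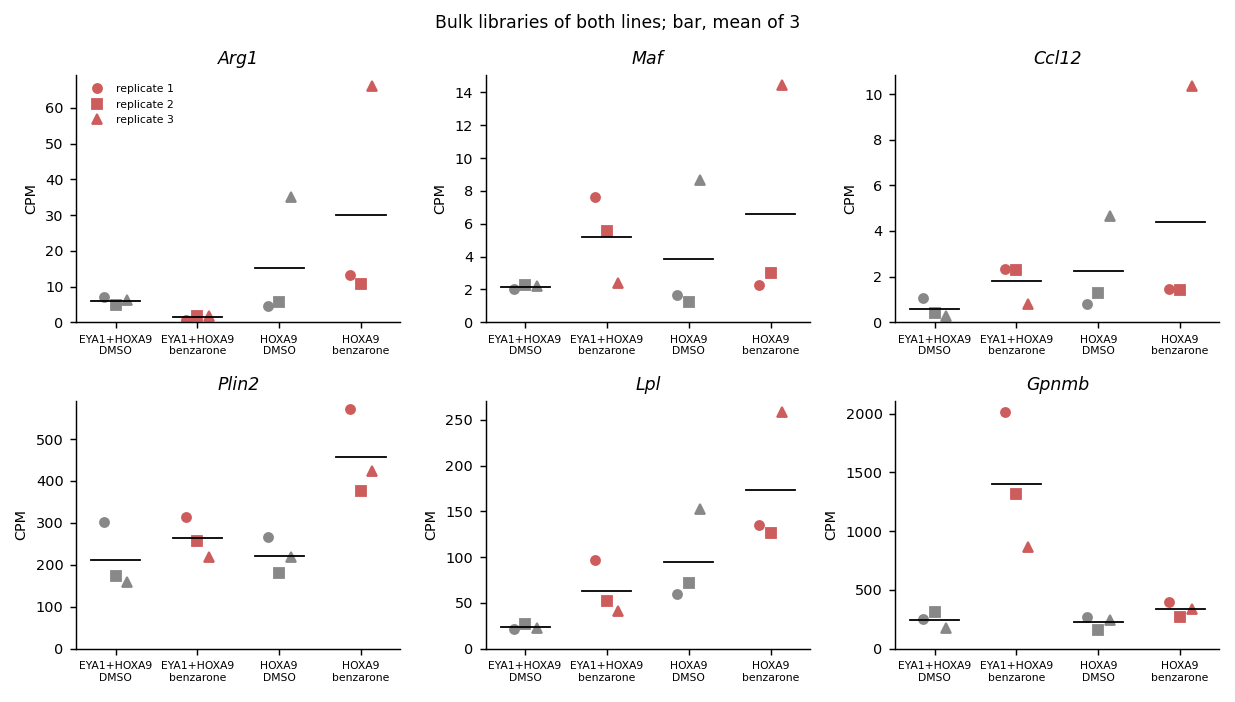
CPM of Arg1, Maf, Ccl12, Plin2, Lpl and Gpnmb in the 12 bulk libraries of the EYA1+HOXA9 and HOXA9 lines in DMSO (grey) and benzarone (red), with symbols for replicates and bars for means of 3. Replicate 3 of the HOXA9 line is highest for Arg1 in both treatments (35.1 and 66.0 CPM), and Gpnmb in EYA1+HOXA9 benzarone libraries (861 to 2015 CPM) lies above all others.

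The named genes given next did not pass in either line in the edgeR fit of all 12 libraries, while some others, such as Ctsl above, did. C1qa had 53 counts over the 12 libraries and was not tested. Pf4 was at 2.05, 1.86 and 0.913 CPM in EYA1+HOXA9 DMSO and 1.80, 3.68 and 4.55 CPM in benzarone, with overlap (1.05 ± 0.52, adjusted p = 0.157). Ppbp was at 0.605, 0.266 and 0.237 CPM and 0.898, 1.13 and 0.823 CPM, without overlap (1.36 ± 0.82, adjusted p = 0.239, and 0.0426 with the line's 6 libraries alone). Ccl2, Ccl7, Ccl12, Lgmn, Marcks and Serpinb2 had log2 differences from -0.63 to 1.65 in that line with adjusted p from 0.204 to 0.994. Ccl2 was between 1.68 and 5.62 CPM in the EYA1+HOXA9 libraries and between 7.83 and 43.8 CPM in the HOXA9 libraries, and Ccl7 between 1.04 and 4.40 CPM and between 4.38 and 27.4 CPM.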

How the data were processed

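The members and gene lists were chosen with earlier results of these data known. The single-cell tables hold whole UMI counts per gene and cell as the authors deposited them, not normalized, over 11662 listed genes for day 5 and 9448 for days 1 and 3. The bulk table holds estimated counts per gene as deposited, rounded here to whole numbers, with 26340400 to 34606000 per library. The submitters' processing notes name Cell Ranger 3.0.0, Salmon 0.13.0 and GRCm38 without roles. Hashtag classes came from the deposited table. No cell had under 6108 UMIs on day 5, and no cell was removed.

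UMIs were summed per class and given as CPM of listed genes (Python 3.11.15, scipy 1.17.1). Plin2, Lpl and Maf were always named, with the 15 highest and 15 lowest ratios among genes of at least 50 CPM and up to 4 members of each list, and others as stated. Bulk counts were tested with edgeR 4.0.16 (filterByExpr, TMM, quasi-likelihood F test, two-sided, Benjamini-Hochberg over 13375 genes) on 12 libraries, with DESeq2 1.42.0 as an alternative. Symbols matched 35177 of 35429 bulk identifiers. Replicate numbers pair the HOXA9 libraries, since deviations from group means correlated at 0.39, 0.46 and 0.79 across genes between same-numbered samples. Both procedures were tested on simulated data. Chromatin data and other bulk groups were not used here.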

Additional observations from a re-analysis of the deposited data

Results flagged for a closer look

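Gpnmb responded to benzarone differently in the 2 bulk lines. Its log2 difference in EYA1+HOXA9 cells exceeded that in HOXA9 cells by 1.92 (interaction term in edgeR, adjusted p = 0.0211), and benzarone libraries were higher than all DMSO libraries of their line in both. Leaving out each EYA1+HOXA9 library in turn gave 2.13 to 2.76 for the difference in that line, with adjusted p from 0.000169 to 0.00189.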

How the results depend on the processing

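The share of Arg1-positive day 5 benzarone cells was 36.4% at 3 or more Arg1 UMIs and 29.6% at 10 or more. With other class limits, scalings, thinning or deep cells left out, 109 to 130 genes were 2-fold higher and 73 to 102 lower. A floor of 50 CPM and 50 UMIs gave 65 and 48, and no floor 562 and 565. Limiting both classes to cells low in late neutrophil RNA, a setting chosen after seeing the data, gave 40 lower genes and reversed BC100530 to a log2 ratio of 0.21. It turned the late neutrophil median from -2.90 over 17 genes to 0.35 over the 10 still compared, which the limit itself selects on.

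In EYA1+HOXA9 cells 3933 genes passed, and leaving out each replicate gave 2353 to 3923 (2353 without DMSO replicate 3). In HOXA9 cells, where none passed, leaving out each gave 0 to 1, the line's 6 libraries alone 1, DESeq2 14 and the replicate block 6. In the EYA1+HOXA9 line numbers do not pair samples (correlations -0.06, -0.05 and 0.02). With the block, fitted in edgeR over both lines together, 4046 genes passed in the EYA1+HOXA9 line and Arg1 fell by 2.32 (log2, adjusted p = 0.0210). Plin2 passed there without DMSO replicate 1 (0.67, adjusted p = 0.0392). The cause of these changes was not tested. Single-cell counts limit genes under 20 CPM, and 1 sample per condition allows no test.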

Other observations

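Interferon-stimulated genes were compared between Arg1 classes in the single cells and between benzarone and DMSO in the bulk lines, which are unlike contrasts. Between Arg1-positive and Arg1-0 day 5 cells none of 10 was 2-fold different, but Isg15, an interferon-induced ubiquitin-like protein, was at 96.6 CPM in Arg1-positive, 109 CPM in Arg1-0 and 2.65 CPM in DMSO cells. In all day 5 benzarone against DMSO cells, Usp18 was at 49.5 against 1.69 CPM and Irf7 at 39.5 against 2.65 CPM. Oasl2 was at 24.2 against 0.94 CPM and Ifitm3 at 2363 against 1585 CPM. In EYA1+HOXA9 bulk libraries 12 of 15 rose and 1 fell with benzarone (median log2 difference 2.03, against 17.0% of all genes that rose and 12.4% that fell), while none passed in HOXA9 cells (median 0.27). Of 16 genes of the unfolded protein response none was 2-fold different between the Arg1 classes, where 2.55% of all compared genes were 2-fold higher and 1.73% lower. Pdia4, a protein disulfide isomerase, had a ratio of 1.77 and Xbp1, a transcription factor of that response, of 0.68. In EYA1+HOXA9 cells 14 of 20 rose, against 17.0% of all genes tested.

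Ly6a, which encodes Sca-1, was at 603 CPM in Arg1-positive, 288 CPM in Arg1-0 and 16.6 CPM in DMSO cells. Day 1 held 9 DMSO cells with 5 or more Arg1 UMIs, at a median of 27582 UMIs per cell against 42715 in the 858 cells without one.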
